A study of Danio rerio with 6 samples.

Results

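Transcripts of 10 genes of the integrated stress response were followed in zebrafish (Danio rerio) embryos that lack bcas2. The genes were atf3, atf4a, atf4b, ddit3, ddit4, asns, chac1, trib3, sesn2 and cebpb. They were taken by exact symbol from a table of 32520 genes, and each symbol matched 1 Ensembl gene. In the integrated stress response, kinases that sense amino acid shortage, unfolded protein, viral RNA or heme lack phosphorylate the translation factor eIF2, which slows most translation but favours that of ATF4. ATF4 is a bZIP transcription factor that turns on genes for amino acid supply, further bZIP factors and brakes on growth signalling. Much of the control of ATF4 is at translation and protein stability, which transcript levels do not measure.

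The bcas2 gene codes for a subunit of the Prp19 complex, which activates the spliceosome. The tested embryos carried a bcas2 knockout (bcas2-KO), and the embryos they were set against were wild type (WT). All were embryos at 3 days post fertilization, genotyped and then pooled; the labels do not say whether whole embryos went into the RNA. There were 3 pools of bcas2-KO embryos and 3 pools of WT embryos, each of 10 embryos, with 1 library from each pool. The labels call the pools biological replicates but do not say whether they came from separate clutches, so the spread between pools may not cover all biological variation. The bcas2 transcript itself stood at 3.09 to 4.49 CPM in bcas2-KO and 27.4 to 29.4 CPM in WT (log2 fold change -2.94 with an SE of 0.13; edgeR quasi-likelihood adjusted p = 4.4e-06). CPM set each count against its library total, scaled by TMM factors, and all fold changes are bcas2-KO over WT.

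Gene counts summed to between 32822716 and 40462653 in the bcas2-KO libraries and between 35560010 and 49526995 in the WT libraries. All 12 genes of a list with 1 marker per tissue, muscle actc1b and neuronal elavl3 among them, had counts in every library. Some libraries stood apart. Lens markers (13 genes) summed to 304 CPM in bcas2-KO library 3 and 405 CPM in WT library 1, against 2.103 to 6.67 CPM in the other 4, where cryaa and lim2.1 were at 0. Photoreceptor markers (17 genes) summed to 163 and 281 CPM in those libraries and to 15.7 to 40.0 CPM in the others. The immediate-early and AP-1 list, whose 21 genes answer quickly to stimulation and handling, summed to 441 to 595 CPM in bcas2-KO, 604 and 657 CPM in WT libraries 1 and 2, and 1045 CPM in WT library 3. Hatching gland genes (11) summed to 333 to 370.3 CPM in bcas2-KO and 418 to 540 CPM in WT, with 6 of them at 0 in bcas2-KO library 3. The largest part of that sum was xbp1, at 219 to 240 CPM in bcas2-KO and 239 to 278 CPM in WT. After it came cd63, at 87.0 to 99.8 CPM in bcas2-KO and 100.2 to 116.7 CPM in WT, which did not pass (edgeR adjusted p = 0.128). The sum is therefore mostly not hatching enzyme transcripts. The hatching enzyme gene he1.1 varied widely between pools, with 6.52, 39.6 and 0.479 CPM in WT libraries 1, 2 and 3. In bcas2-KO libraries 1, 2 and 3 it had 0.654, 1.95 and 0.123 CPM, so the genotypes overlapped. The 1 gene of this list that passed was agr2, at 21.4 to 29.2 CPM in bcas2-KO and 62.6 to 72.0 CPM in WT. Its log2 fold change was -1.45 (edgeR adjusted p = 0.000131). Exocrine pancreas genes (18) summed to 88.4 to 127 CPM in bcas2-KO and 324 to 401 CPM in WT. Neutrophil and macrophage genes (15) summed to 183 to 337 CPM in bcas2-KO and 277 to 410 CPM in WT. The highest of these bcas2-KO sums, in library 1, held 140 CPM of mmp9, against 21.5 and 29.2 CPM in libraries 2 and 3. In WT, mmp9 had 24.1 to 81.5 CPM. Among the 15 genes, 5 were lower and 0 higher in bcas2-KO at an edgeR adjusted p under 0.05. Over all tested genes 9.01% were lower and 10.6% higher. The part of these tissues in the results was not tested. In pooled embryos, fewer cells of a type and less RNA per cell cannot be told apart.

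The leucine sensor gene sesn2 and the central factor gene atf4a fell in bcas2-KO, and none of the integrated stress response genes rose at an adjusted p under 0.05. Of the 10 members, 9 had enough counts to be tested and chac1 had none. Among the 9 tested, 2 fell, 0 rose and 7 did not pass (edgeR quasi-likelihood test, adjusted over all 22347 tested genes). Across all tested genes 19.6% changed by this test, 9.01% lower and 10.6% higher, and the 2 of 9 members are to be read against these shares. DESeq2 gave 4 members lower and 0 higher, against 10.2% of all genes lower and 11.5% higher. At an unadjusted p under 0.05 in edgeR there were 5 members lower and 1 higher, against 16.9% of all genes lower and 17.5% higher. The median log2 fold change of the 9 was -0.38, against -0.02 over all tested genes, and it was -0.25 without WT library 3. A fall of this size was not particular to the members. The 12 genes of the list with 1 marker per tissue had a median of -0.45, with 6 lower and 0 higher at an adjusted p under 0.05. Genotypes did not overlap for 4 of the 9, 2 of them lower and 2 higher in bcas2-KO, against 39.4% of all tested genes (19.4% lower, 20.1% higher), which is close to the background. The count of members called was 2 when WT library 3 was left out, 0 without bcas2-KO library 1, 1 without bcas2-KO library 3 or WT library 2, and 4 without WT library 1.

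**Figure D1:**
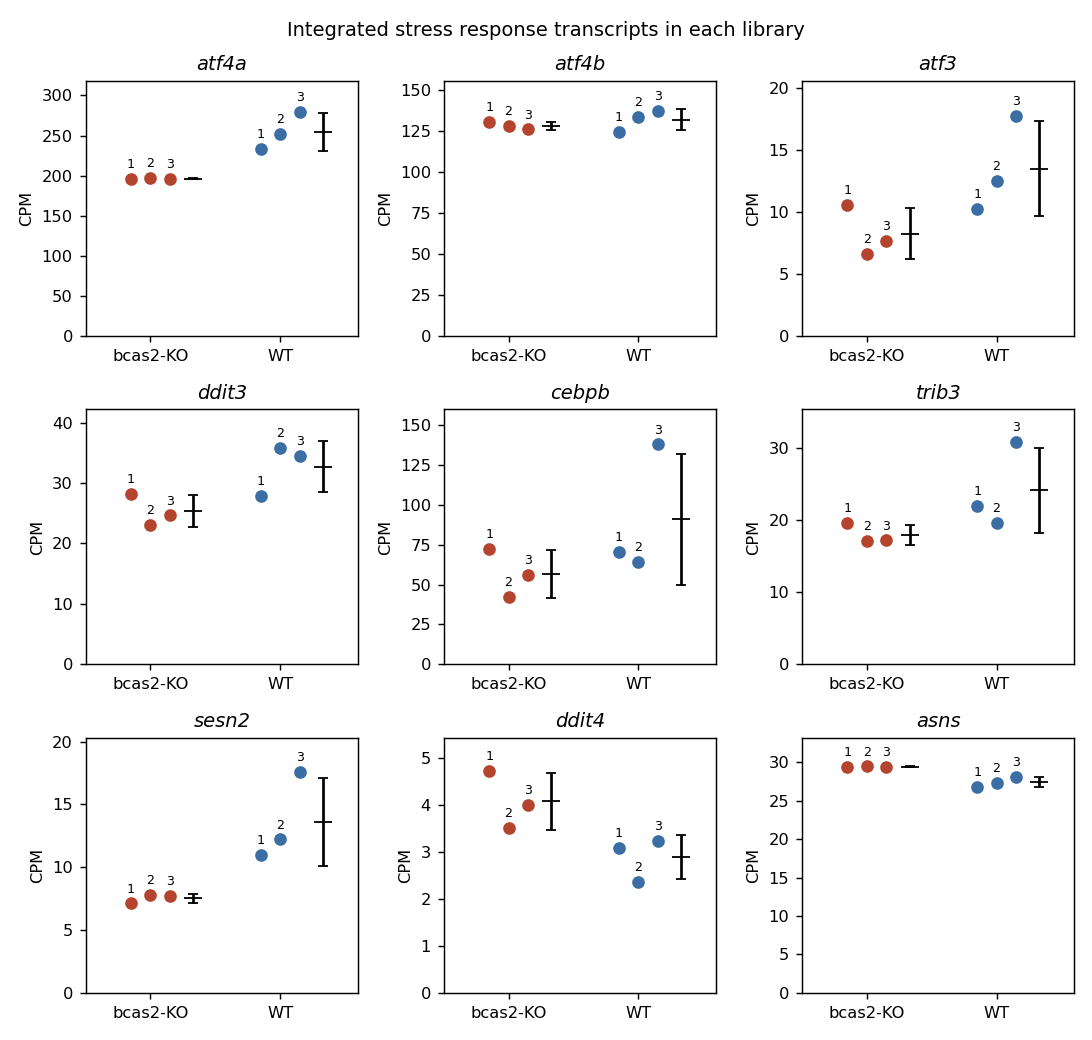
CPM of the 9 members with counts in each of 3 bcas2-KO libraries (red, left) and 3 WT libraries (blue, right), with the library number above each point and the mean and SD as a bar beside the points. All bcas2-KO points lie below all WT points for atf4a and sesn2, and above them for ddit4 and asns.

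**Figure D2:**
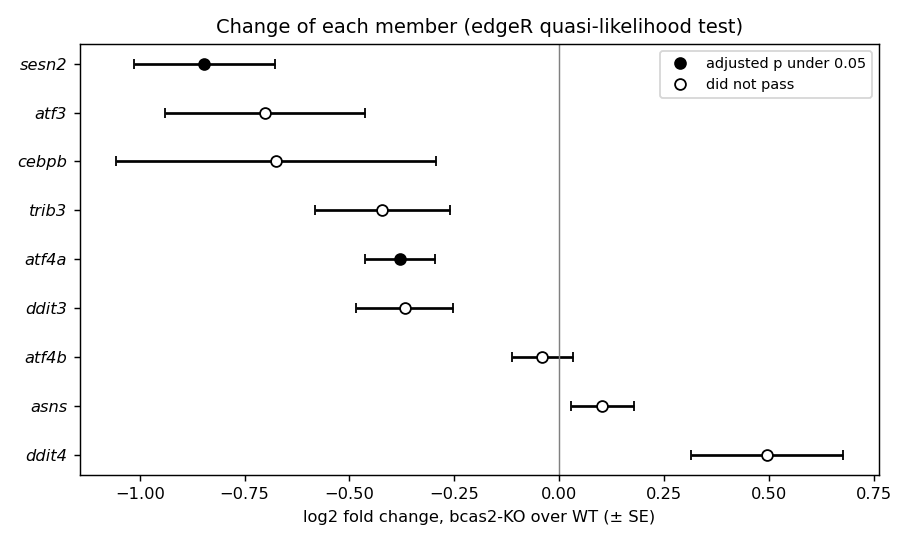
Log2 fold change of each tested member, bcas2-KO over WT, with its SE as a bar; filled points passed an adjusted p of 0.05. Values run from -0.85 for sesn2 to 0.50 for ddit4.

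Zebrafish have a pair of ATF4 genes, atf4a and atf4b. The transcript of atf4a fell and that of atf4b did not pass the test. The transcript atf4a (ENSDARG00000111939) had 195, 197 and 196 CPM in bcas2-KO libraries 1, 2 and 3, against 233, 252 and 279.7 CPM in WT libraries 1, 2 and 3. The bcas2-KO values were nearly alike and lay below every WT value. The mean was 196 ± 0.632 CPM in bcas2-KO and 255 ± 23.6 CPM in WT (SD, n = 3 pools each), 1.3002-fold lower (log2 fold change -0.38 with an SE of 0.08; edgeR adjusted p = 0.0136). The call was lost without bcas2-KO library 1 (adjusted p = 0.0596), bcas2-KO library 3 (0.0509) or WT library 2 (0.0563), while the log2 fold change stayed between -0.43 and -0.31 when any 1 library was left out.

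The paralog atf4b (ENSDARG00000038141) had 130.5, 128 and 126 CPM in bcas2-KO pools, against 125, 133 and 137 CPM in WT. These ranges overlapped. The log2 fold change of atf4b was -0.04 with an SE of 0.07 (edgeR adjusted p = 0.735), and scaling by library totals alone turned it to 0.0020. The ratio of atf4a to atf4b within a library does not depend on how libraries are scaled. On FPKM, which are counts scaled to gene length and library total, the ratio was 2.11, 2.17 and 2.19 in bcas2-KO and 2.63, 2.66 and 2.88 in WT. All 3 bcas2-KO ratios lay below all 3 WT ratios, with a mean of 2.16 ± 0.0424 in bcas2-KO and 2.72 ± 0.134 in WT (SD, n = 3 each; log2 difference -0.34). The exact permutation test (two-sided) gave p = 0.1, which is the smallest that 3 against 3 libraries allow. This ratio was chosen after the values of both genes were seen.

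**Figure D3:**
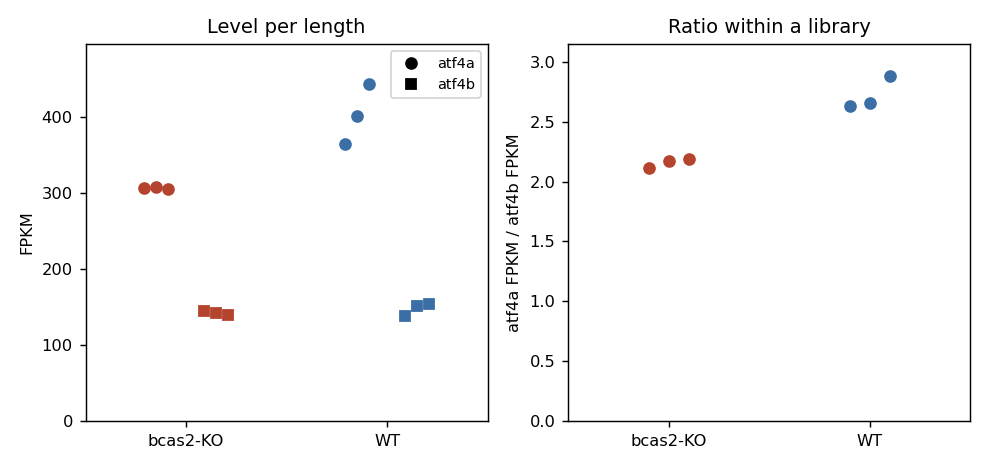
Left, FPKM of atf4a (circles) and atf4b (squares) in 3 bcas2-KO libraries (red) and 3 WT libraries (blue). Right, the ratio of the 2 genes' FPKM in each library, from 2.11 to 2.19 in bcas2-KO and from 2.63 to 2.88 in WT.

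The other bZIP factor genes among the members, atf3, ddit3 and cebpb, did not pass the test. The gene atf3 (ENSDARG00000007823), which codes for a stress-induced repressor and is a target of ATF4, had 10.5, 6.61 and 7.63 CPM in bcas2-KO pools, against 10.3, 12.5 and 17.8 CPM in WT. The highest bcas2-KO library lay above the lowest WT library. Its log2 fold change was -0.70 with an SE of 0.24 (edgeR adjusted p = 0.0775), and it passed with DESeq2 (adjusted p = 0.0114) and without WT library 1 (0.0336). Without WT library 3 the log2 fold change of atf3 was -0.46 (adjusted p = 0.155).

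The gene ddit3 (ENSDARG00000059836) codes for Chop, which promotes cell death when stress persists. It had 28.2, 23.1 and 24.6 CPM in bcas2-KO pools, against 27.9, 35.8 and 34.4 CPM in WT. WT library 1, one of the 2 libraries high in eye transcripts, lay among the bcas2-KO values, and the other WT libraries lay above them. The other library high in eye transcripts, bcas2-KO library 3, lay between the remaining bcas2-KO libraries. The log2 fold change of ddit3 was -0.37 with an SE of 0.12 (edgeR adjusted p = 0.0523), just short of the threshold. The gene passed without WT library 1 (0.0119), in the 4 libraries low in eye transcripts (0.0410) and with DESeq2 (0.0328). It did not pass when any other single library was left out (0.0656 to 0.188). Of 17 alternatives, 11 left it short of the threshold, and its log2 fold change ranged from -0.47 to -0.30 over all of them.

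The gene cebpb (ENSDARG00000042725), for a bZIP factor that pairs with ATF4 and Chop and also acts in inflammation and liver, varied most between pools. It had 72.3, 42.1 and 55.8 CPM in bcas2-KO pools, against 70.4, 64.1 and 138 CPM in WT. WT library 3 held about as much as the other WT libraries put together. The log2 fold change was -0.68 with an SE of 0.38 (edgeR adjusted p = 0.284), and -0.25 without WT library 3 (adjusted p = 0.553). Its relative cebpa was called lower in bcas2-KO. That call was lost whichever library was left out (log2 fold change -0.48 to -0.28, edgeR adjusted p = 0.0562 to 0.131).

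Among the effectors that restrain growth signalling, sesn2 fell. Sestrin 2, its product, senses leucine and holds back the growth kinase complex mTORC1 in mammalian cells. The transcript (ENSDARG00000070012) had 7.12, 7.77 and 7.72 CPM in bcas2-KO pools, against 11.0, 12.2 and 17.6 CPM in WT. Every bcas2-KO library lay below every WT library. The mean was 7.54 ± 0.361 CPM in bcas2-KO and 13.6 ± 3.52 CPM in WT (SD, n = 3 each), 1.80-fold lower (log2 fold change -0.85 with an SE of 0.17; edgeR adjusted p = 0.00954). The call was lost without bcas2-KO library 1 (adjusted p = 0.0516). Without WT library 3, the highest, the log2 fold change was -0.62 (adjusted p = 0.00991). The related genes sesn1 and sesn3 had log2 fold changes of 0.17 (adjusted p = 0.376) and 0.10 (0.516).

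The gene ddit4 (ENSDARG00000037618) codes for Redd1, another brake on mTORC1. It had 4.72, 3.51 and 3.999 CPM in bcas2-KO pools, against 3.09, 2.37 and 3.23 CPM in WT. All bcas2-KO values lay above all WT values, opposite to sesn2, but the difference did not pass (log2 fold change 0.50 with an SE of 0.18; edgeR adjusted p = 0.0842). The counts behind ddit4 were small, 130 to 195 in bcas2-KO libraries and 101 to 158 in WT libraries. The gene trib3 (ENSDARG00000016200), for a pseudokinase that binds Akt and feeds back on ATF4, had 19.6, 17.1 and 17.2 CPM in bcas2-KO pools, against 21.98, 19.5 and 30.8 CPM in WT. These ranges met at their edges. Its log2 fold change was -0.42 with an SE of 0.16 (edgeR adjusted p = 0.0982), and -0.21 without WT library 3 (adjusted p = 0.238). Its relatives trib1 and trib2 had log2 fold changes of -0.43 (adjusted p = 0.0547) and 0.20 (0.332).

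Of the metabolic members, asns did not pass the test and chac1 had no counts to test. The gene asns (ENSDARG00000016375) codes for asparagine synthetase, a well known target of ATF4. It had 29.41, 29.47 and 29.35 CPM in bcas2-KO pools, against 26.8, 27.3 and 28.1 CPM in WT. The groups did not overlap, yet the log2 fold change was only 0.10 with an SE of 0.08 (edgeR adjusted p = 0.372). The gene chac1 (ENSDARG00000070426), for an enzyme that breaks down glutathione, was listed at 0 counts in all 6 libraries, in a total of 240829175 counts. In this it was like 3643 of the 32520 genes in the table. A count of 0 allows up to 3 counts, or 0.0727 to 0.0923 CPM in bcas2-KO libraries and 0.0587 to 0.0897 CPM in WT libraries. Whether the gene model or the counting rule kept reads from chac1 could not be checked, so this floor limits the counts in the table and not the expression of the gene. Its relative chac2, for a glutathione enzyme of slower turnover, was counted at 2.28 to 3.27 CPM in bcas2-KO and 2.18 to 2.98 CPM in WT.

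Levels per length followed nearly the same order in both genotypes. In bcas2-KO the FPKM level of atf4a was 304 to 308, followed by atf4b at 139 to 145, cebpb at 61.1 to 105 and ddit3 at 36.5 to 44.8, none of which overlapped its neighbour. Next came asns at 19.5 to 19.7 FPKM and trib3 at 17.2 to 19.8 FPKM, which overlapped. The lowest levels in bcas2-KO were sesn2 at 7.15 to 7.79, atf3 at 5.38 to 8.59 and ddit4 at 4.98 to 6.71 FPKM, and here atf3 overlapped both of its neighbours. In WT, atf4a was at 364 to 444 FPKM, atf4b at 138 to 154 overlapped cebpb at 94.7 to 202, and ddit3 was at 44.1 to 57.7. Below them in WT stood trib3 at 20.1 to 31.5, asns at 17.9 to 19.1, sesn2 at 11.0 to 17.9, atf3 at 8.34 to 14.7 and ddit4 at 3.42 to 4.64 FPKM, with overlap between sesn2 and atf3. Over the 6 libraries the mean FPKM of atf4a was higher than that of 98.6% of tested genes and that of ddit4 higher than 41.2%.

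Within a genotype several members were high or low in the same pools. The same shares over all tested genes were not computed, so the counts below are not read as particular to the members. WT library 3 was the highest WT library for 8 of the 9 members with counts, all except ddit3, and the highest of all 6 libraries for 6 of them. WT library 1 was the lowest WT library for 6 of 9. In bcas2-KO, library 1 was the highest for 6 of 9 and library 2 the lowest for 5. Some of these ranks rest on small differences, as for atf4a (195 to 197 CPM) and asns (29.35 to 29.47 CPM). WT library 3 was also the highest of 6 libraries for 17 of 21 genes of the immediate-early list and for 7 of 9 genes of a glucocorticoid-responsive list. The same held for 9 of 18 heat shock genes and 5 of the 12 genes with 1 marker per tissue. In bcas2-KO libraries 1, 2 and 3 the immediate-early sum was 518, 440.5 and 595 CPM. The glucocorticoid-responsive sum was 772, 595 and 767 CPM, and the heat shock sum 3555, 3510 and 3057 CPM. Library 3 was the highest bcas2-KO library for 0 of 9 members. The part of these lists in the members' values was not tested. Without WT library 3 the log2 fold change was -0.31 for atf4a (edgeR adjusted p = 0.0299) and -0.62 for sesn2 (0.00991).

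**Figure D4:**
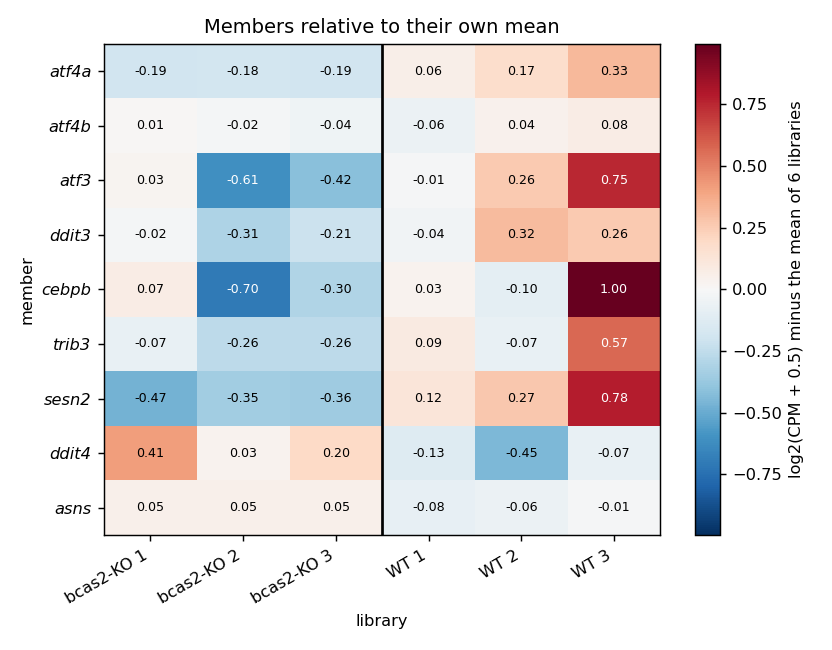
Log2(CPM + 0.5) of each member minus its mean over the 6 libraries, with bcas2-KO libraries left of the line and WT libraries right of it; red is above and blue below the member's own mean. The column of WT library 3 holds the largest positive values, up to 1.00 for cebpb, while the asns row stays between -0.08 and 0.05.

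For the 2 members that changed, the genes of most similar profile were found by the root mean square difference of centred log2(CPM + 0.5) values over 6 libraries, among 18891 other genes with at least 1 CPM on average. For atf4a these were adck1 (0.0100), a mitochondrial kinase-like gene, and actn4 (0.0163), an actin crosslinker gene. For sesn2 they were grapa (0.0479) and s100w (0.0573). The libraries share genotype and pool, so this likeness is a description only. None of the members lay among the 100 nearest genes on either side of bcas2 in the gene order of a newer assembly, and 1, cebpb, was on the same chromosome.

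Upstream of ATF4, transcripts of the heme-sensing eIF2 kinase eif2ak1 rose. It had 14.3, 15.1 and 14.0 CPM in bcas2-KO pools, against 9.28, 8.23 and 8.73 CPM in WT. The groups were well apart (log2 fold change 0.73 with an SE of 0.10; edgeR adjusted p = 0.00144), and the gene was called whichever library was left out. The kinase eif2ak2, which senses double-stranded RNA, fell at a low level, with 1.42 to 2.03 CPM in bcas2-KO and 2.30 to 2.98 CPM in WT (log2 fold change -0.67 with an SE of 0.21, adjusted p = 0.0477). That call was lost in 5 of 6 fits with a library left out, all except the one without bcas2-KO library 2 (adjusted p = 0.0547 to 0.164). The teleost kinase gene pkz had a log2 fold change of -0.63 (adjusted p = 0.193). Of the 11 genes in this list of eIF2 kinases, feedback phosphatase subunits and regulators of the kinases, 1 rose, 1 fell and 9 did not pass (median -0.04). Those that did not pass included the amino acid sensor EIF2AK4, the endoplasmic reticulum kinase gene eif2ak3 and the phosphatase subunit genes ppp1r15a and ppp1r15b. Counts in this and the later lists are to be read against 10.6% of all tested genes higher and 9.01% lower. With DESeq2 these shares were 11.5% and 10.2%, and at an unadjusted p under 0.05 in edgeR 17.5% and 16.9%. Of 9 subunits of eIF2 and its exchange factor eIF2B, 1 rose and 0 fell (median 0.06; DESeq2 gave 1 and 0, and 3 were higher and 0 lower at an unadjusted p under 0.05). That gene was eif2s3, for the gamma subunit of eIF2, at 210.0 to 221 CPM in bcas2-KO and 162 to 186 CPM in WT (log2 fold change 0.34, adjusted p = 0.0161). The eif2s3 call was lost without bcas2-KO library 2 or 3 or WT library 2 (adjusted p = 0.0530, 0.0572 and 0.0794). The other subunit genes closest to the threshold were eif2s1b (0.20, adjusted p = 0.0691; 0.0419 without WT library 1) and eif2b5 (0.20, adjusted p = 0.101).

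Genes for amino acid supply are a main known output of ATF4. Of 20 genes for amino acid and one-carbon synthesis, 3 fell, 1 rose and 16 did not pass (median log2 fold change -0.04), a share close to the 19.6% of all tested genes that changed. The cystathionine synthase gene cbsa stood at 2.37, 1.98 and 2.03 CPM in bcas2-KO pools, against 4.38, 4.36 and 4.34 CPM in WT. Its groups were far apart (log2 fold change -1.03 with an SE of 0.15, edgeR adjusted p = 0.00227). The gene cbsa was called whichever library was left out. Its more abundant paralog cbsb, at 34.9 to 39.7 CPM in bcas2-KO and 33.5 to 47.7 CPM in WT, did not pass (-0.13, adjusted p = 0.511). The serine synthesis gene psph fell (-0.29, adjusted p = 0.0245) and the proline synthesis gene pycr1a fell (-0.56, 0.0403), while the alanine aminotransferase gene gpt2l rose (0.37, 0.0161). Those 3 calls each depended on single libraries. The psph call was lost without bcas2-KO library 1 or 2 or WT library 2 or 3 (adjusted p = 0.0574 to 0.101). That of pycr1a was lost in every fit but that without bcas2-KO library 3 (0.0568 to 0.151). That of gpt2l was lost without bcas2-KO library 1 or WT library 2 (0.0700 and 0.0804). The more abundant paralog of pycr1a, pycr1b, at 75.8 to 83.3 CPM in bcas2-KO and 83.4 to 88.5 CPM in WT, did not pass (-0.11, adjusted p = 0.307).

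Of 14 amino acid transporter genes, 3 rose, 3 fell and 8 did not pass (median -0.06). Over all tested genes 10.6% rose and 9.01% fell. The neutral amino acid transporter gene slc43a1b had 23.6, 27.0 and 26.5 CPM in bcas2-KO pools, against 19.5, 17.7 and 18.5 CPM in WT (log2 fold change 0.47 with an SE of 0.09; edgeR adjusted p = 0.00812). It was called whichever library was left out. Its paralog slc43a1a rose too (0.66, adjusted p = 0.0123; lost without bcas2-KO library 1, 0.0589, or WT library 2, 0.0593). The cystine importer gene slc7a11 fell, at 1.26, 0.742 and 1.29 CPM in bcas2-KO pools, against 1.86, 3.14 and 2.51 CPM in WT (log2 fold change -1.19 with an SE of 0.28, adjusted p = 0.0170; lost without WT library 2, 0.0776). Of 20 cytosolic aminoacyl-tRNA synthetase genes, another known target group, 0 rose and 0 fell with edgeR, and 1 rose with DESeq2 (median 0.01). At an unadjusted p under 0.05 in edgeR, 5 were higher and 0 lower, against 17.5% and 16.9% of all tested genes. The smallest adjusted p in that list belonged to qars1 (log2 fold change 0.22, adjusted p = 0.0559), gars1 (0.21, 0.0691) and lars1b (0.23, 0.0899). Without WT library 1, lars1b passed (0.0421).

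A further list held other ATF4-linked regulators and effectors and the relatives of the members. Of its 23 genes, 5 fell, 1 rose and 17 did not pass, with a median of 0.10 (-0.0044 without WT library 1). Over all tested genes 9.01% fell and 10.6% rose. The small stress-induced chromatin protein gene nupr1b had 24.8, 21.7 and 23.3 CPM in bcas2-KO pools, against 32.6, 31.8 and 34.2 CPM in WT (log2 fold change -0.50 with an SE of 0.08; edgeR adjusted p = 0.00447). The stanniocalcin gene stc2a, for a secreted glycoprotein that regulates calcium and growth signals, had 6.03, 6.95 and 7.17 CPM in bcas2-KO pools, against 9.16, 10.7 and 11.2 CPM in WT (log2 fold change -0.62 with an SE of 0.12, adjusted p = 0.00864). Both genes were lower in every bcas2-KO library and were called whichever library was left out. The bZIP gene atf5a, a relative of ATF4, fell at a low level (-0.59, adjusted p = 0.0174; lost without bcas2-KO library 1 or 2 or WT library 2 or 3, adjusted p = 0.0516 to 0.0769). The lipoprotein receptor gene vldlr, the 1 gene of this list that rose, was named after its value was seen (0.53, adjusted p = 0.0211; lost without bcas2-KO library 1 or 3 or WT library 2 or 3, adjusted p = 0.0603 to 0.0911).

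**Figure D5:**
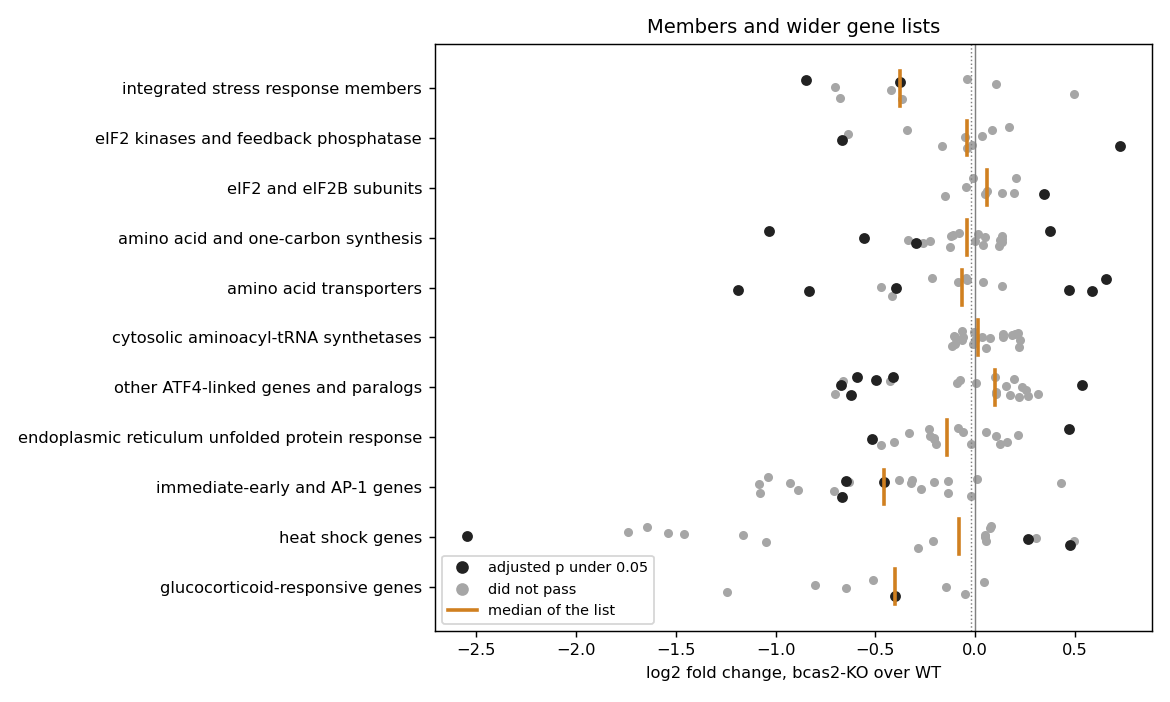
Log2 fold change, bcas2-KO over WT, of each tested gene in the members and in 10 wider lists; dark points passed an adjusted p of 0.05, grey points did not, the orange bar is the list's median and the dotted line the median of all tested genes. Medians lie between -0.46 for immediate-early genes and 0.10 for other ATF4-linked genes, and the tRNA synthetase points all lie close to 0.

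Neighbouring stress programs and a hormone-responsive list were set beside the members. The counts called are to be read against 10.6% of all tested genes higher and 9.01% lower. At an unadjusted p under 0.05 in edgeR these shares were 17.5% and 16.9%. Of 18 genes of the endoplasmic reticulum unfolded protein response, 1 rose, 1 fell and 16 did not pass (median -0.14). The stress sensor gene ern1 rose (log2 fold change 0.47, adjusted p = 0.0128, edgeR) and the chaperone gene hsp90b1 fell (-0.52, 0.0270), while xbp1 did not pass (-0.21, 0.114; 0.0463 without WT library 1). The ern1 call was lost without bcas2-KO library 3 (0.0529) or WT library 2 (0.0598), and that of hsp90b1 without bcas2-KO library 1 or 3 or WT library 1 or 2 (0.0760 to 0.106). Of 21 immediate-early and AP-1 genes, 3 fell and 0 rose (median -0.46; DESeq2 gave 4 and 0, and 5 were lower and 0 higher at an unadjusted p under 0.05). The AP-1 subunit gene jun had 72.8, 71.7 and 75.4 CPM in bcas2-KO pools, against 107, 102 and 135 CPM in WT (log2 fold change -0.65 with an SE of 0.11, adjusted p = 0.00372). It was called whichever library was left out, as was klf6a (-0.67, 0.0117). The call of ier5 (-0.46, 0.0283) was lost without bcas2-KO library 1 or 2 or WT library 2 or 3 (0.0727 to 0.110). Without WT library 3, the library in which this list was highest, 2 of 21 fell and the median was -0.22.

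Of 18 heat shock genes, 2 rose, 1 fell and 15 did not pass (median -0.08), and DESeq2 gave 3 and 3. Over all tested genes 10.6% rose and 9.01% fell, and with DESeq2 11.5% and 10.2%. The chaperone genes hspa4a (log2 fold change 0.48, adjusted p = 0.0304) and hspa4b (0.27, 0.0343) rose. The inducible gene hsp70l fell, at 4.09, 2.92 and 1.88 CPM in bcas2-KO pools, against 10.4, 11.6 and 30.7 CPM in WT (-2.55, 0.0414). The hspa4a call was lost without bcas2-KO library 1 or 2 or WT library 2 or 3 (0.0747 to 0.117). That of hspa4b was lost in every fit with a library left out but that without WT library 1 (0.0848 to 0.112), and that of hsp70l without any 1 bcas2-KO library or WT library 2 (0.0777 to 0.142). Of 9 glucocorticoid-responsive genes, mibp2 fell (-0.40, adjusted p = 0.00987), 0 rose and 8 did not pass (median -0.40; DESeq2 gave 1 lower and 0 higher, and at an unadjusted p under 0.05 there were also 1 and 0). The mibp2 call was lost without bcas2-KO library 1 (0.0564) or WT library 2 (0.0505). The genes klf9 (-1.24, 0.147) and tsc22d3 (-0.51, 0.201; 0.0266 without WT library 1, and -0.23 with 0.361 without WT library 3) did not pass.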

How the data were processed

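RNA sequencing libraries came from 6 pools of embryos, 3 bcas2-KO and 3 WT. Total RNA (TRIzol) was made into libraries with a NEBNext Ultra RNA kit, per the labels. That kit as named keeps no strand, so reads of genes that overlap on opposite strands cannot be told apart by strand. How such reads were counted is not stated. The authors deposited raw counts per Ensembl gene and, in a second table, FPKM of the same genes. The submitters' processing notes name GRCz11 (danRer11), DESeq2 1.22.1, featureCounts 1.6.0, STAR 2.6.1a, StringTie 1.3.3b and cutadapt 1.15, with no roles. The sources used here state neither the annotation release nor any filter.

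Genes were kept with filterByExpr of edgeR 4.0.16 (minimum count 10; 22347 of 32520), scaled by TMM and tested with edgeR's quasi-likelihood test (robust, two-sided, genotype alone) in R 4.3.3, with Benjamini-Hochberg adjustment over all tested genes and a threshold of 0.05. The SE is the absolute log2 fold change divided by the square root of the F statistic. Log2 profiles used CPM plus 0.5. Alternatives were DESeq2 1.42.0, limma 3.58.1 on log2(FPKM + 0.1 or 1), other scalings and filters, a replicate block and left-out libraries. The fit was tested on simulated data with known changes. It recovered 40% of 1.5-fold, 67.6% of 2-fold and 90.8% of 4-fold changes. Only 200 genes were changed in the simulation, with 140 calls, against 4382 calls in the data. The Benjamini-Hochberg cutoff is stricter when fewer genes change, so these shares may understate recovery in the data. A gene that did not pass may still have changed by a small fold. No pair of libraries of a genotype agreed within sampling noise (chi-square per degree of freedom 12.7 to 34.4). Floors of 3 counts cover counting error only.

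The members and lists were chosen with earlier results of these data known. Named genes were bcas2, the 10 members, up to 3 genes of smallest p in each of 10 wider lists, all called genes of a list with 5 or fewer, and the 2 genes of most similar profile to a called member. Outside this rule, EIF2AK4, eif2ak3, ppp1r15a, ppp1r15b, vldlr, cbsb and pycr1b were named after their values were seen. So were the marker genes he1.1, agr2, cd63 and mmp9 and the relatives of members (sesn1, sesn3, trib1, trib2, chac2, cebpa). List symbols were matched exactly or, where absent, without regard to case. A planned search for a motif in promoters was not analysed here, and gene order came from a RefSeq table of assembly GRCz12tu.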

Additional observations from a re-analysis of the deposited data

How the results depend on the processing

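Over all alternatives, sesn2 stayed lower (log2 fold change -0.99 to -0.62) and so did atf4a (-0.44 to -0.31); no call of a member was lost except by leaving out a library. When 1 library was left out, sesn2 ranged from -0.97 to -0.62, atf4a from -0.43 to -0.31, atf3 from -0.91 to -0.46 and ddit3 from -0.47 to -0.30. The log2 fold change of atf3 passed with DESeq2 at -0.70. That of ddit3 passed with DESeq2 (-0.37), upper-quartile factors (-0.43), no filter on low counts (-0.36), a minimum count of 30 (-0.38) and in the 4 libraries low in eye transcripts (-0.44). Of 17 alternatives, 15 left atf3 and 11 left ddit3 short of the threshold. The change of atf4b turned to 0.0020 with library totals and never passed. The log2 ratio of atf4a to atf4b differed by -0.37 to -0.30 between the genotypes in 8 alternatives, all added after the data were seen. The cause of these shifts was not tested. Members called numbered 4 with DESeq2, and 0 to 4 with 1 library left out. All genes called ranged from 1730 to 5171 with 1 library left out, and upper-quartile factors moved the share of higher calls to 39.9%, against 54.1%.

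In the wider lists, with 1 library left out, calls ranged from 1 to 2 (kinases), 0 to 2 (eIF2 and eIF2B), 1 to 4 (synthesis), 1 to 7 (transporters), 0 to 1 (tRNA synthetases), 2 to 8 (other ATF4-linked), 0 to 4 (unfolded protein response), 2 to 3 (immediate-early), 0 to 4 (heat shock) and 0 to 2 (glucocorticoid-responsive). The kinase list had 1 call with library totals, no filter on low counts, the 4 libraries low in eye transcripts or unfiltered log2(FPKM + 0.1). That last setting gave 3 transporters, 0 unfolded protein response genes and 1 heat shock gene. DESeq2 gave 1 tRNA synthetase and 6 heat shock genes, and library totals 1 tRNA synthetase and 1 unfolded protein response gene. The 4 libraries low in eye transcripts gave 1 unfolded protein response gene and 3 glucocorticoid-responsive genes. Over 37 genes of these lists (the 3 of smallest p in each and all that were called, not all of them named), 28 were called, 7 of these in every fit with a library left out, and 0 changed sign.

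Pools of the 2 genotypes share replicate numbers, but the labels do not say that same-numbered pools pair. The pools numbered 2 deviated together (correlation over genes 0.435), and those numbered 1 and 3 did not (-0.134 and -0.00953). Between differently numbered pools the correlation ran from -0.342 to 0.288. It was 0.288 for bcas2-KO 3 and WT 1, the 2 libraries high in eye transcripts, and 0.224 for bcas2-KO 1 and WT 3. Only number 2 correlated best with its own number. With the replicate number as a block, 2 members and 4922 genes were called, and 4 unfolded protein response, 5 immediate-early and 3 glucocorticoid-responsive genes. The largest count of ddit4 in a library was 195.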
